A study of Homo sapiens with 6 samples.

Results

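NF-kB is a family of dimeric transcription factors, and the genes described here encode its subunits and the inhibitors that restrain it. The 10 genes were taken as a fixed list, matched by symbol and Ensembl identifier, and all 10 were found among the 57905 genes of the count table and passed the filter on low counts that left 16622 genes for testing. By role they comprised 5 subunits (RELA, RELB, REL, NFKB1 and NFKB2), 3 classical IkB inhibitors (NFKBIA, NFKBIB and NFKBIE), the ubiquitin-editing enzyme gene TNFAIP3, and BCL3, which encodes an IkB-like cofactor found in the nucleus. The RNA-SEQ libraries came from NALM6, a human cell line derived from B cell precursor acute lymphoblastic leukemia (B-ALL). Of the 6 libraries, 3 represent cells given the solvent DMSO and the other 3 represent cells given THZ1, a covalent inhibitor of the transcriptional kinase CDK7, at 500 nM, and both treatments lasted 24 h. The comparison asks how the RNA of these genes differed after CDK7 was inhibited. The labels do not say whether the replicates were separate cultures, so the p-values measure only the spread between these libraries, which may be technical. NALM6 is a single line from 1 leukemia, so the data hold no spread between leukemias.

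In resting cells, NF-kB dimers are held in the cytoplasm by IkB proteins, which mask their nuclear localization signals. Upstream receptors activate the IkB kinases, IkB is phosphorylated, ubiquitinated and degraded, and the freed dimers bind kB sites in DNA. Genes for IkB alpha (NFKBIA) and A20 (TNFAIP3) are themselves textbook targets of NF-kB, which closes a negative feedback loop, and the precursors p105 and p100 encoded by NFKB1 and NFKB2 also act as inhibitors until they are processed to p50 and p52. In B cells, REL and RELA dimers serve the canonical branch, and RELB paired with p52 serves the noncanonical branch.

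Because kB sites are what links these genes in a feedback loop, the bases just before their start sites are shown first. In RefSeq (GRCh38.p14), 13 promoter windows of 300 bases, 250 before and 50 from the start site on, were listed for 8 of the 10 genes, and RELB and NFKBIE had no entry. The kB consensus was searched on both strands, overlapping matches included. At least 1 match was present in 8 of the 13 windows and in 7 of the 8 genes, whereas 11.3% of all 35116 windows and 13.3% of the 27305 genes with a window held one. The member windows with a match had 61% to 80% G and C, and those without had 51.3% to 77%. The median of all windows was 58.7%, and the part of base composition in the matches was not tested. Below are the 120 bases directly before 6 of these start sites, 5′ to 3′ on the strand of the gene, with bases that match the kB consensus in capitals.

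NFKBIA, chr14:35404750-35404869, minus strand: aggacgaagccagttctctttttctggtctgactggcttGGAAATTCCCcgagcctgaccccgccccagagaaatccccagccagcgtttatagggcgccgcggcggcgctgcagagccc

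NFKBIB, chr19:38899849-38899968, plus strand: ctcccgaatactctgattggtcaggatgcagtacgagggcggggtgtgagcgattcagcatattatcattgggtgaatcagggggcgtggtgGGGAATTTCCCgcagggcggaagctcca

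TNFAIP3, chr6:137867139-137867258, plus strand: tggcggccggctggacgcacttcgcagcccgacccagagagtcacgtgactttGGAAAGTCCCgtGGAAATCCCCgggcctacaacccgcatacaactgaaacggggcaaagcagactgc

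REL, chr2:60881454-60881573, plus strand: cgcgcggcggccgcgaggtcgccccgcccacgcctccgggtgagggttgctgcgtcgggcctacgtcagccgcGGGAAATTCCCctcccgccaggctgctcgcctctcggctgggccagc

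NFKB1, chr4:102501239-102501358, plus strand: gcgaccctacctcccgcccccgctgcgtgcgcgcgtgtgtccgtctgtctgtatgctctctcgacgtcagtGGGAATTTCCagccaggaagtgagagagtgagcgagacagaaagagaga

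NFKB2, chr10:102394458-102394577, plus strand: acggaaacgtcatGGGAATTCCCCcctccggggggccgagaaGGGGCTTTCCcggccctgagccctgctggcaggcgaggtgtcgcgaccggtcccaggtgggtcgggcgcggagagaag

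In the NFKBIA sequence the match GGAAATTCCC began 81 bases before the start site. NFKBIA was also the only gene of the 8 with a TATAAA motif, found on the opposite strand as TTTATA, against 11.5% of all windows. REL and NFKBIB each carried a nearly symmetrical match that is read on both strands, GGGAAATTCC overlapped by GGAAATTCCC in REL and GGGAATTTCC overlapped by GGAATTTCCC in NFKBIB, 47 and 28 bases before the start, and NFKBIB had a further match, GGGGGGCCCC, 38 bases after it. TNFAIP3 had a closely spaced pair, GGAAAGTCCC and GGAAATCCCC, 67 and 55 bases before the start. NFKB1 had GGGAATTTCC 49 bases before the start, and the NFKB2 sequence had GGGAATTCCC overlapped by GGAATTCCCC and a separate GGGGCTTTCC 78 bases before the start. A second NFKB2 window held GGGGCTTCCC and GGGACTTTCC, 176 and 21 bases before its own start. For BCL3 the match GGGAAGTCCC lay 2 bases after the first transcribed base, so no upstream stretch of that gene is printed. The windows of RELA held no match, which says only that these letters are not in them. Genes with a match included members that were higher and members that were lower under THZ1, and a match is a description of sequence, not a measured binding site.

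Read depth set the precision of what follows. Between 11015480 and 11164840 counts fell on genes in each library under DMSO, and between 7876402 and 8314306 under THZ1. Levels are given as CPM, counts relative to the library size after scaling by the trimmed mean of M-values (TMM). The limit that 3 counts set was 0.253 CPM or less under DMSO and 0.415 CPM or less under THZ1, for counting error only. Mitochondrially encoded genes took 4.32% to 4.37% of the counts under DMSO and 12.6% to 13.6% under THZ1. All 12 markers of B cell precursors were detected, with a summed level of 4133 to 4269 CPM under DMSO and 2192 to 2257 CPM under THZ1. Among them 2 were called higher and 9 lower. Calls of markers follow the adjusted p rule given below. That rule called 43.5% of all genes tested as higher and 41.1% as lower, 84.5% in either direction. Of 8 T cell markers, 6 had at most 3 counts in every library, CD8A and TRAT1 were at 0 in all, and the summed level, mostly ZAP70, was 85.3 to 95.8 CPM under DMSO and 28.7 to 37 CPM under THZ1. The 8 myeloid markers, with FCN1 at 0 in every library, summed to 12.8 to 14.6 CPM under DMSO and 20.8 to 22.3 CPM under THZ1. Of the 5 tested, 2 were higher and 2 lower. The higher ones were CD14 (7, 9 and 7 reads under DMSO, 58, 71 and 65 under THZ1) and CSF1R (2, 1 and 1 against 60, 39 and 37). Both passed the filter only through the THZ1-treated libraries, and LYZ, 1 of the lower, only with the DMSO-treated ones. These calls therefore support no direction of the myeloid markers. The 6 stromal markers summed to 11.5 to 13.1 CPM and 18.9 to 20.8 CPM, and of the 2 tested 1 was higher and 1 lower. The part of the mitochondrial share and of these markers in the results below was not tested.

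Across the family, in the counts, the inhibitor genes and the subunit genes RELB and REL were higher in THZ1-treated cells. The precursor subunit genes NFKB1 and NFKB2 were lower, and RELA, encoding p65, was not called. REL was not higher in the FPKM values deposited by the authors (mean 1.16 under DMSO and 1.00 under THZ1). TNFAIP3 lost its call in 6 of 16 alternative fits and reversed in 1. With the threshold set at an adjusted p of 0.05 and no minimum fold, 7 members were higher, 2 were lower and 1 was not called (quasi-likelihood test of edgeR, with p-values adjusted over the whole table by Benjamini-Hochberg). The same rule called 84.5% of all genes tested, 43.5% as higher and 41.1% as lower, so that being called sets no member apart. When a log2 difference of 1.5 or more was required too, BCL3, REL and RELB were higher and 0 members were lower, against 24.6% and 12.9% of all genes, and 37.5% in either direction. The median log2 fold change was 0.85 over the members and 0.03 over all genes tested. In CPM the treatments did not overlap for any of the 10 members, as for 84.7% of all genes tested. In bulk RNA, fewer cells of a kind and less RNA per cell cannot be told apart, and the values are shares of each library. The scaling mattered for the members with small differences: with library sizes alone, which shifts the median of all genes by −0.25, 6 members were higher and 3 lower, and with upper quartile factors, which shift it by 0.19, 8 were higher and 2 lower.

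**Figure D1:**
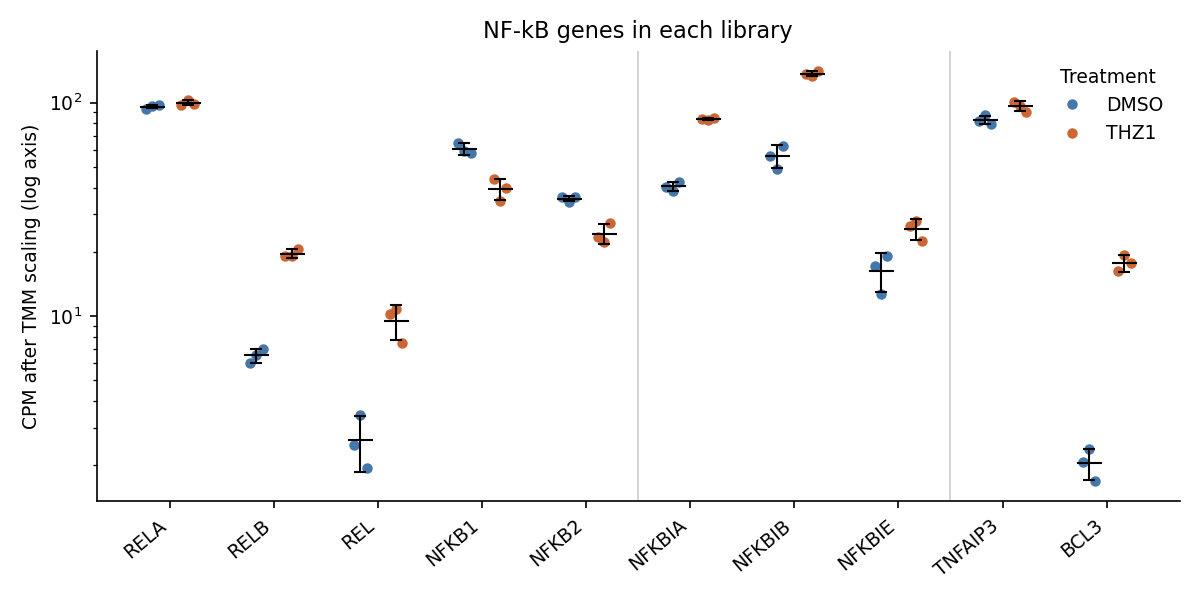
Level of each of the 10 genes in each library, in CPM after TMM scaling on a log axis, with bars for the mean and SD of the 3 libraries of a treatment. Grey lines separate the subunits, the IkB inhibitors, and TNFAIP3 with BCL3. BCL3 moved furthest, from a mean of 2.04 to 17.7 CPM, whereas the RELA points of both treatments lie between 93.8 and 102.9 CPM.

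RELA (chr11:65421070-65430561, minus strand, GRCh37) encodes p65, the subunit that carries a strong transactivation domain and pairs with p50. Its levels were 93.8, 96.6 and 97.3 CPM under DMSO and 97.8, 102.9 and 98.8 CPM under THZ1. The treatments were separated only by a narrow margin. The log2 fold change was 0.06 (SE 0.07, 95% interval −0.09 to 0.21, edgeR, adjusted p = 0.47), so a difference of up to 0.21 is within the interval. Its direction depended on the scaling, from −0.19 with library sizes alone (edgeR, adjusted p = 0.0173) to 0.25 with upper quartile factors (edgeR, adjusted p = 0.0024), and RELA is therefore used below as a reference within each library only.

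RELB (chr19:45504719-45541450, plus strand) encodes the subunit of the noncanonical branch, which pairs mainly with p52. It was at 6.04, 6.56 and 7.0 CPM in the DMSO-treated and at 19.1, 19.1 and 20.7 CPM in the THZ1-treated libraries. All THZ1-treated libraries were well above all DMSO-treated ones, and the log2 fold change was 1.59 (SE 0.15, 95% interval 1.29 to 1.89, edgeR, adjusted p = 1.9e-11).

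REL (chr2:61108626-61158747, plus strand) encodes c-Rel, a subunit prominent in lymphocytes. It was the least abundant member by raw counts together with BCL3, with 30, 42 and 23 reads under DMSO and 78, 78 and 56 under THZ1, which is 2.48, 3.44 and 1.94 CPM against 10.3, 10.8 and 7.49 CPM. The read counts themselves were higher under THZ1 although those libraries were shallower. The log2 fold change was 1.85 (SE 0.23, 95% interval 1.38 to 2.32, edgeR, adjusted p = 9.5e-09). The deposited FPKM values (fragments per length and depth, made by the authors with RSEM) did not show this difference, with 1.14, 1.29 and 1.04 under DMSO and 1.12, 1.22 and 0.659 under THZ1. With limma on log2(FPKM + 1) the difference was −0.12 (adjusted p = 0.513). Which of the tables is nearer to the RNA of REL cannot be told from them. No deposited DMSO value of any gene lay below 0.32 on the log2 scale, whereas 267 to 286 genes were at 0 in each THZ1-treated library, and the part of this in the REL values was not tested. Reads of the overlapping transcripts RNU4-51P and ENSG00000267520 were at 0 except for 4 of RNU4-51P in THZ1 replicate 2. ENSG00000267520 shares 5702 bases with REL on the same strand. Its 0 count does not tell how reads of that stretch were assigned, and their part in the REL values was not tested.

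NFKB1 (chr4:103422487-103538459, plus strand), which encodes p105 and p50, had 64.9, 59.3 and 57.8 CPM under DMSO and 43.8, 34.7 and 39.8 CPM under THZ1. NFKB2 (chr10:104153867-104162281, plus strand), which encodes p100 and p52, had 36.0, 34.3 and 36.2 CPM against 23.5, 22.1 and 27.3 CPM. Both genes were lower in every THZ1-treated library than in any DMSO-treated library. NFKB1 fell by 0.62 on the log2 scale (SE 0.09, edgeR, adjusted p = 4.3e-07) and NFKB2 fell by 0.54 (SE 0.11, edgeR, adjusted p = 2.2e-05). These 2 genes share the precursor architecture, a Rel homology region followed by IkB-like ankyrin repeats, and they were the only members that fell. NFKB1 spans 116 kb and NFKB2 spans 8.415 kb, so the genes that fell included the longest locus of the family and one of its shorter ones.

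The 3 IkB genes rose together. NFKBIA (chr14:35870285-35873955, minus strand), whose promoter stretch with its kB match is given above, encodes IkB alpha, the inhibitor that is degraded and resynthesized within each cycle of NF-kB activity. Its levels of 40.2, 38.7 and 42.7 CPM under DMSO stood against 83.5, 83.2 and 84.8 CPM under THZ1. The THZ1-treated libraries lay close together and 2.07-fold above the DMSO level, a log2 fold change of 1.05 (SE 0.08, 95% interval 0.88 to 1.22, edgeR, adjusted p = 3.9e-13).

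NFKBIB (chr19:39390340-39399533, plus strand) encodes IkB beta, which retains RELA and REL dimers more stably. It measured 56.5, 49.0 and 62.9 CPM under DMSO and 136, 133 and 141 CPM under THZ1, without overlap. The log2 fold change was 1.28 (SE 0.08, 95% interval 1.11 to 1.45, edgeR, adjusted p = 3.2e-15). SIRT2, on the opposite strand, shares 163 bases with it and had a log2 fold change of 0.25 (edgeR, adjusted p = 0.00809). No strand setting is given, so reads of the shared stretch cannot be assigned, and their part in the NFKBIB value was not tested.

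NFKBIE (chr6:44225903-44233525, minus strand) encodes IkB epsilon. It was at 17.2, 12.6 and 19.2 CPM under DMSO and at 26.6, 27.8 and 22.5 CPM under THZ1. The highest DMSO-treated and the lowest THZ1-treated library were close, and this inhibitor had the widest relative spread among the IkB genes. Its log2 fold change was 0.65 (SE 0.14, 95% interval 0.37 to 0.93, edgeR, adjusted p = 5.8e-05), the smallest of the 3.

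TNFAIP3 (chr6:138188351-138204451, plus strand) encodes A20, which removes activating ubiquitin chains upstream of the IkB kinases. It had 82.0, 87.5 and 79.8 CPM under DMSO and 101, 96.6 and 90.9 CPM under THZ1, with a narrow gap between the treatments. The log2 fold change of 0.21 (SE 0.08, 95% interval 0.05 to 0.37, edgeR, adjusted p = 0.012) passed the threshold in this fit but was lost without DMSO replicate 1 (edgeR, adjusted p = 0.079) or without THZ1 replicate 1 (edgeR, adjusted p = 0.0889). With library sizes alone it was −0.04 (edgeR, adjusted p = 0.667). The lncRNA gene WAKMAR2, on the opposite strand, shares 1020 bases with TNFAIP3 and had 228, 273 and 238 reads under DMSO and 40, 48 and 62 under THZ1, a log2 fold change of −1.60 (edgeR, adjusted p = 8.9e-11). Without a known strand setting, reads of the shared stretch could belong to either gene, and their part in the TNFAIP3 value was not tested.

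BCL3 (chr19:45250962-45263301, plus strand) encodes a nuclear IkB-like protein that binds p50 and p52 homodimers and can turn them into activators. It showed the furthest difference of the family, with 25, 29 and 20 reads under DMSO and 123, 139 and 132 reads under THZ1. In CPM these were 2.07, 2.38 and 1.69 against 16.2, 19.2 and 17.6, so every THZ1-treated library was several times above every DMSO-treated one. The log2 fold change was 3.10 (SE 0.19, 95% interval 2.71 to 3.50, edgeR, adjusted p = 1.1e-15), which is 8.59-fold. Among all genes tested, 86.3% had a lower log2 fold change than BCL3. With limma on the deposited values the difference was smaller, 2.05 to 2.37 on the log2 scale, and stayed past the threshold. BCL3 ends 241 kb before the start of RELB on the same chromosome arm. Both were among the members higher by a log2 fold change of at least 1.5, as were 24.6% of all genes tested. Any link between position and change was not tested.

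**Figure D2:**
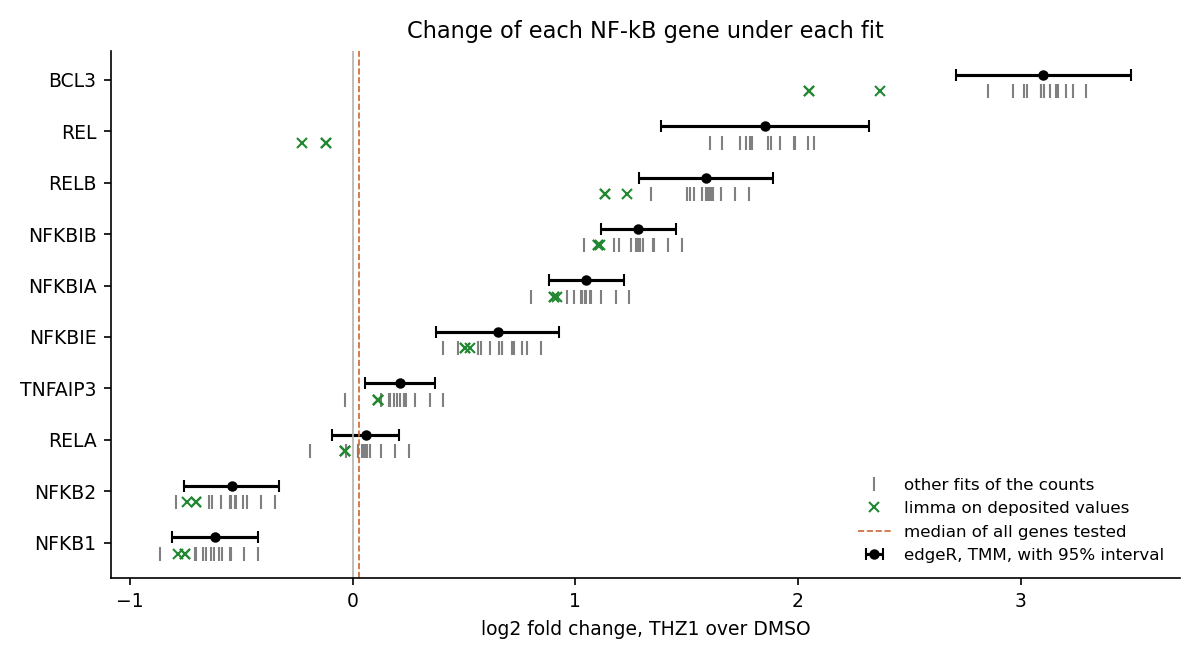
Log2 fold change, THZ1 over DMSO, of each gene: black points with the 95% interval are the edgeR fit with TMM scaling, grey ticks are other fits of the counts, green crosses are limma on the deposited FPKM values, and the dashed line is the median of all genes tested, 0.03. RELA and TNFAIP3 have fits on both sides of 0, and REL lies at 1.85 from counts but below 0 from the deposited values.

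Ratios between members within a library do not depend on how libraries are scaled. With 3 libraries against 3 the exact permutation test cannot go below p = 0.1, so none of the 6 ratios computed could pass 0.05, and the sizes are given beside the spread. NFKBIA reads per RELA read were 0.428, 0.401 and 0.439 under DMSO and 0.854, 0.809 and 0.858 under THZ1, without overlap. The log2 difference was 0.99 (pooled SD 0.06, exact two-sided permutation test, p = 0.1, adjusted p = 0.15), a 1.99-fold difference of the inhibitor against its main partner. RELB against RELA differed by 1.53 (pooled SD 0.08) and REL against RELA by 1.81 (pooled SD 0.35), neither with overlap, whereas in the deposited FPKM values the REL to RELA difference was −0.22.

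Between the precursor subunits the difference was smaller than the spread. NFKB2 against NFKB1 differed by 0.08 (pooled SD 0.14, exact permutation test, p = 0.6), and the treatments overlapped. Within the inhibitors, NFKBIB against NFKBIA differed by 0.24 (pooled SD 0.08, exact permutation test, p = 0.1, no overlap). NFKBIE against NFKBIA differed by −0.38 (pooled SD 0.21, exact permutation test, p = 0.2), with overlap.

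**Figure D3:**
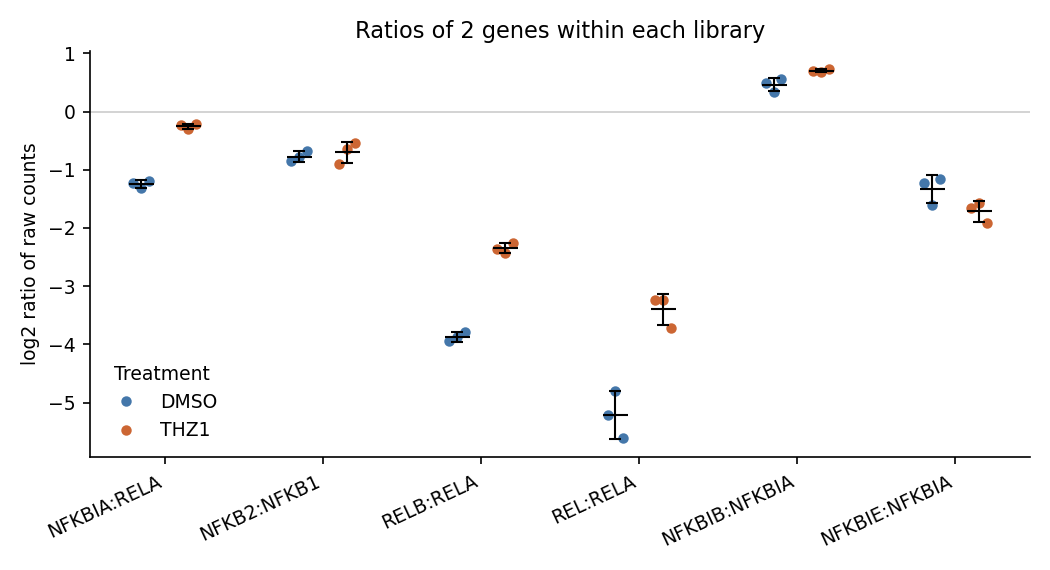
Log2 ratio of the raw counts of 2 members within each library (0.5 added to each count), with the mean and SD of each treatment. NFKBIA:RELA, RELB:RELA and REL:RELA lie higher in every THZ1-treated library, and NFKB2:NFKB1 overlaps, with a difference of 0.08 between the means.

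Levels of different genes were set side by side per length, with the deposited FPKM values. Under DMSO, NFKBIB was highest at 67.8 ± 6.64 FPKM (SD, n = 3), followed by RELA at 49.0 ± 1.30, NFKBIA at 47.4 ± 1.55 and TNFAIP3 at 46.1 ± 3.01, which overlapped with their neighbours. NFKB1 at 26.8 ± 1.59 was above NFKB2 at 21.2 ± 0.830 and NFKBIE at 18.0 ± 3.73, and these last overlapped. RELB at 6.91 ± 0.509, BCL3 at 2.67 ± 0.284 and REL at 1.16 ± 0.125 FPKM closed the order without overlap. The overlaps depended on the unit. In CPM per kilobase of the canonical transcript no neighbours overlapped under DMSO, with RELA at 38.1, NFKBIA at 26.0 and TNFAIP3 at 17.8.

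Under THZ1 the IkB genes led. NFKBIB was at 146 ± 3.30 and NFKBIA at 89.5 ± 1.14 FPKM, above TNFAIP3 at 49.8 ± 2.35 and RELA at 47.8 ± 1.05, which overlapped. In CPM per kilobase, RELA at 39.7 lay above TNFAIP3 at 20.6 without overlap. NFKBIE followed at 25.7 ± 2.78 FPKM. RELB at 16.3 ± 0.920, NFKB1 at 15.5 ± 2.0, BCL3 at 14.2 ± 1.29 and NFKB2 at 12.7 ± 1.55 FPKM formed a stretch in which each overlapped the next. The noncanonical subunit and the nuclear cofactor, both well below NFKB1 and NFKB2 under DMSO, overlapped with NFKB1 under THZ1, where BCL3 also overlapped with NFKB2 and RELB lay above it. In CPM per kilobase RELB (8.44, 8.46 and 9.18) overlapped with NFKB2 (7.81, 7.35 and 9.05) too. REL stayed last at 1.00 ± 0.300 FPKM.

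Summed over the 3 IkB genes, the level was 135, 121 and 144 FPKM under DMSO and 262, 259 and 263 FPKM under THZ1. Summed over the 5 subunits, it was 105.7, 104.9 and 104.4 FPKM against 93.4, 90.8 and 95.8 FPKM. The IkB to subunit ratio was 1.27, 1.15 and 1.38 under DMSO and 2.80, 2.86 and 2.75 under THZ1, without overlap, and the RNA of the inhibitors exceeded that of the subunits in every library. With CPM per kilobase of the canonical transcript in place of FPKM, the mean ratios were 1.18 ± 0.120 and 2.67 ± 0.002 (SD, n = 3). In that unit the subunit sums overlapped, at 68.1, 67.6 and 68.2 under DMSO and 66.8, 66.2 and 68.0 under THZ1. The lower subunit sum under THZ1 thus depended on the unit. These are levels of RNA, and protein was not measured in these files.

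**Figure D4:**
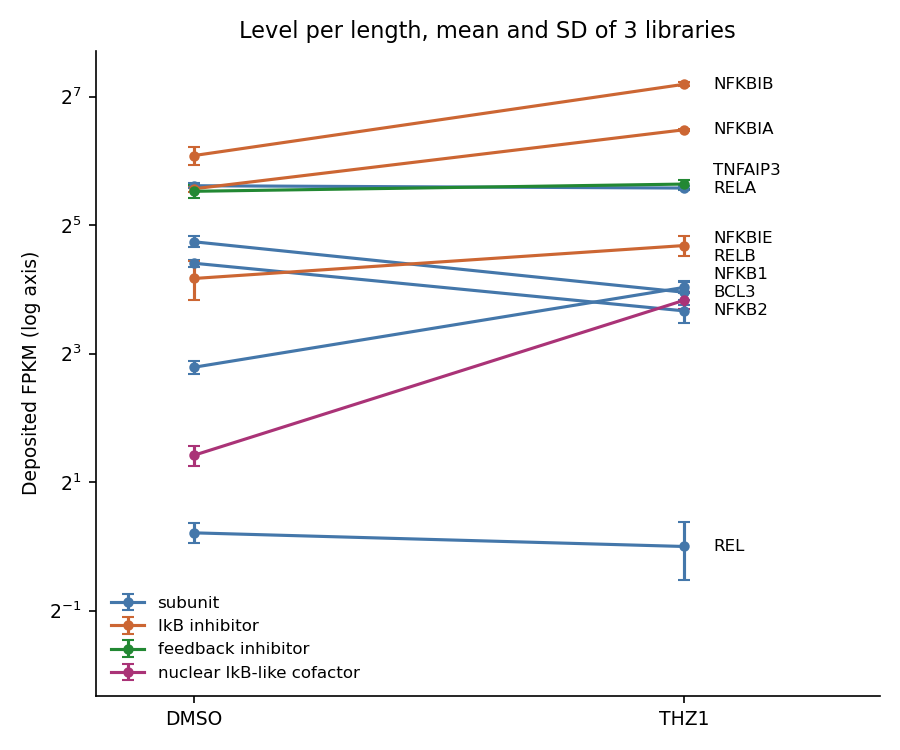
Deposited FPKM of each gene under DMSO and THZ1 on a log axis, as the mean and SD of 3 libraries, coloured by role. The IkB genes NFKBIB and NFKBIA reach 146 and 89.5 FPKM under THZ1, and RELB and BCL3 meet NFKB1 and NFKB2 between 12.7 and 16.3 FPKM.

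The genes around the family in the pathway were followed by lists chosen from general knowledge. Of all genes tested, 43.5% were higher and 41.1% lower, 84.5% in either direction, and the counts below are to be read beside these shares. Of 25 receptors and adaptors, 20 were tested, 6 were higher and 11 lower (85% called), with a median log2 fold change of −0.36. The lowest were TNFRSF1B, a receptor for TNF, at 33.2 ± 0.809 CPM under DMSO and 5.31 ± 2.06 CPM under THZ1 (SD, n = 3, log2 fold change −2.63), and TNFRSF13B, the receptor TACI of mature B cells, with 32, 17 and 27 reads under DMSO and 5, 1 and 2 under THZ1 (−2.51, from few reads). TNFRSF13B passed the filter only through the DMSO-treated libraries, so its call supports no direction of the list. With at least 10 counts required in every library, 7 of the list were higher and 9 lower. The highest were the adaptors MYD88 of Toll-like receptors, at 54.5 ± 3.47 and 239.7 ± 13.3 CPM (2.14), and TRAF1 of TNF receptors, at 3.32 and 12.1 CPM (1.86, and 0.76 with limma on log2(FPKM + 1)). The list thus held differences in both directions, as did all genes tested.

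For the kinases upstream of IkB and their partners, values are given for 3 genes only, and they do not stand for the list. TAB1, which activates the kinase TAK1, was at 42.0 ± 2.36 CPM under DMSO and 3.44 ± 0.810 CPM under THZ1, a log2 fold change of −3.60 (SE 0.15, edgeR, adjusted p = 6.2e-20). IKBKB, the IkB kinase of the canonical branch, was at 67.3 ± 2.53 and 23.6 ± 0.339 CPM, a log2 fold change of −1.51 (SE 0.09, edgeR, adjusted p = 8.6e-16). The RNA of this kinase was lower in the same libraries in which that of the 3 IkB genes was higher. TAB2, another partner of TAK1, had a log2 fold change of 0.22, which turned to −0.03 with library sizes alone and lost its call without any 1 of 4 libraries (DMSO replicate 1 or 3, THZ1 replicate 1 or 2; edgeR, adjusted p = 0.0538 to 0.111). The call was also lost without a filter (0.13) and with each limma fit of the deposited values (0.10 to 0.11).

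Of 9 genes for the degradation of IkB and the processing of p105 and p100, all were tested, 3 were higher and 4 lower, with a median of −0.17. That is 77.8% called, against 84.5% of all genes tested. With library sizes alone 2 were higher and 6 lower. With DESeq2 or the replicate block 2 were higher and 4 lower, and without a filter 2 were higher and 5 lower. Without 1 library at a time, 2 to 3 were higher and 4 to 5 lower. CUL1, the scaffold of the SCF ligase that ubiquitinates IkB, was lowest with a log2 fold change of −1.22, from 114 ± 3.36 to 48.9 ± 6.51 CPM. VCP, a segregase that pulls ubiquitinated proteins apart, followed at −1.10. NEDD8, whose attachment activates cullins, and its conjugating enzyme gene UBE2M were highest, at 0.68 and 0.58, but NEDD8 lost its call with limma on log2(FPKM + 1), at 0.22 (adjusted p = 0.33).

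Beyond the members, 18 of 20 listed inhibitors and feedback regulators were tested, 9 were higher and 7 lower, with a median of 0.16. That is 88.9% called, against 84.5% of all genes tested. IER3, an immediate early gene that limits NF-kB, was at 6.94, 5.57 and 6.50 CPM under DMSO and at 207, 257 and 264 CPM under THZ1, a log2 fold change of 5.26 (SE 0.11, edgeR, adjusted p = 1.2e-27). NFKBIZ, which encodes the nuclear IkB zeta and is related to BCL3, was at 3.47, 4.10 and 5.32 against 36.3, 33.2 and 34.6 CPM, a log2 fold change of 3.01 (SE 0.15, edgeR, adjusted p = 2.5e-18). The treatments were far apart for both. NLRC5, the transactivator of MHC class I genes, and N4BP1 were lowest, at −1.70 and −1.23.

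Among 30 genes widely used as NF-kB targets, 16 were tested, 11 were higher and 4 lower, with a median of 1.58. That is 93.8% called, against 84.5% of all genes tested. With upper quartile factors 12 were higher and 2 lower. LTA, PLEK and CCR7, with 4 to 13 reads per library under DMSO and 25 to 55 under THZ1, passed the filter only through the THZ1-treated libraries, so the count and the median describe these genes and support no direction of the list. With at least 10 counts required in every library, 8 were higher and 2 lower. JUNB, a subunit of AP-1, was at 45, 45.9 and 51.5 CPM under DMSO and at 814, 932 and 897 CPM under THZ1 (log2 fold change 4.21), and the cytokine gene TNF was highest at 4.34. The lowest were the transcription factor gene ETS1 at −1.55 and NINJ1 at −1.25. The genes that passed the filter do not stand for the whole list. CXCL8, CXCL2, CXCL10 and PTGS2, inflammatory targets in other cells, had 0 counts in every library, which allows up to 0.253 CPM under DMSO and 0.415 CPM under THZ1.

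**Figure D5:**
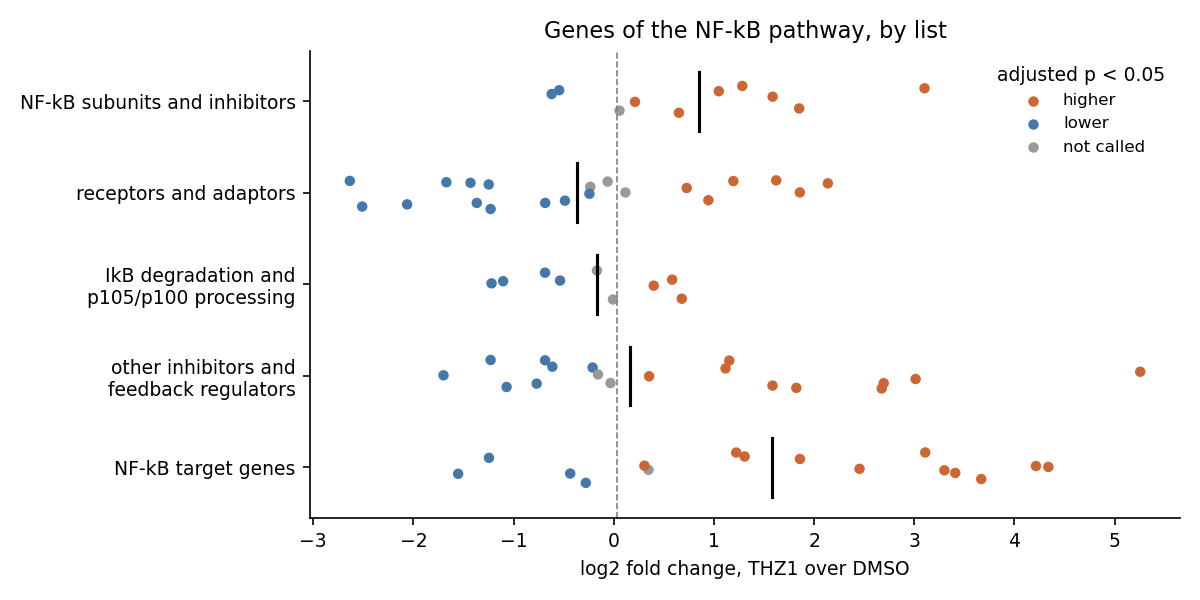
Log2 fold change, THZ1 over DMSO, of every tested gene of the members and of 4 of the lists, coloured by call at the 0.05 threshold of the adjusted p (edgeR), with a black bar for the median of the list and a dashed line for the median of all genes tested, 0.03. The medians run from −0.36 for receptors and adaptors to 1.58 for target genes, and each list holds genes on both sides of 0.

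The genes whose profile over the 6 libraries lay nearest to the highest and the lowest member were found by the Euclidean distance of log2 CPM centred on the DMSO mean, among 9566 genes of at least 10 CPM. Nearest to BCL3 were LMNTD2-AS1 (distance 0.145), SENCR (0.268) and MALAT1 (0.269), all annotated as lncRNAs. MALAT1 went from 193 ± 18.8 CPM under DMSO to 1562 ± 104.9 CPM under THZ1, a log2 fold change of 3.01. LMNTD2-AS1 and SENCR are antisense to other genes, so that without a strand setting their reads may be shared. Nearest to NFKB1 were COPG1, a coat protein of Golgi vesicles (0.128), POLK, a translesion DNA polymerase (0.134), and the zinc finger gene ZNF266 (0.141), with log2 fold changes of −0.62, −0.57 and −0.65. Nearness here is a description of these libraries.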

How the data were processed

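RNA-SEQ counts and expression values of 6 NALM6 libraries were analysed. Raw counts, 1 value per gene and library, were deposited by the authors, who mapped the reads to GRCh37 with STAR and used htseq-count. Cutadapt and RSEM are also named in the submitters' processing notes. The annotation, the strand setting and the counter version are not given in the sources used here. The authors also deposited a table of 16730 genes on a log2 scale, read here as log2(FPKM + 1) from the RSEM step of the methods. Its sorted values differed by a median of 0.00150 to 0.00170 between libraries of one treatment and by 0.0870 to 0.0902 between treatments, and the step behind this is not stated. The p-values, FDR values and log2 fold changes that the authors deposited hold their own comparison of the treatments and were not used.

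The members and lists were chosen with earlier results of these data known. The filter was filterByExpr (minimum 10 counts per gene in enough libraries and 15 in all), TMM gave the scaling, and the test was that of edgeR 4.0.16 (quasi-likelihood, two-sided, Benjamini-Hochberg over all genes tested) in R 4.3.3. The threshold was an adjusted p of 0.05, without a minimum fold or with a log2 difference of 1.5 or more. Alternatives used RLE or upper quartile factors, library sizes alone, DESeq2 1.42.0, other filters, a replicate block, each library left out, and limma 3.58.1 on the FPKM values (pseudocount 1 or 0.1, or a mean of at least 1). The scripts were tested on simulated data. Replicate libraries differed beyond sampling noise (chi-square per gene 1.78 to 8.61) and each was kept. Ratios used Python 3.11.15 with scipy 1.17.1.

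The text names all members, the 2 highest and 2 lowest tested genes of each list, and the 3 genes nearest to the highest and the lowest member. SIRT2, WAKMAR2, RNU4-51P, ENSG00000267520, ZAP70, CD8A, TRAT1, FCN1, CD14, CSF1R, LYZ, LTA, PLEK, CCR7 and the 4 target genes at 0 counts fall outside this rule and were named after their values were seen. The counts of the list of kinases, and 1 gene that the rule names there, are not reported here. IKBKG, IKBKE, OTUD7B, CCL3 and CCL4 were not analysed here. Gene positions are from GENCODE 44 on GRCh37, and promoter sequences from RefSeq on GRCh38.p14, matched by symbol.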

Additional observations from a re-analysis of the deposited data

How the results depend on the processing

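Under the 16 alternatives, NFKB1, NFKB2, RELB, NFKBIA, NFKBIB, NFKBIE and BCL3 kept their direction and their call. REL did so in all fits of the counts but was −0.12, −0.23 and −0.12 with limma on the deposited values (adjusted p = 0.513, 0.511 and 0.522), where its ratio to RELA was −0.22 and that of RELB to RELA 1.28. RELA was −0.19 with library sizes alone, −0.029 without a filter and −0.035, −0.036 and −0.035 with the limma fits, and was called higher with upper quartile factors (0.25) and with at least 10 counts in every library (0.19). TNFAIP3 was −0.037 with library sizes alone and lost its call without a filter (0.13), with limma (0.11) and without either of 2 libraries, and TAB2 was −0.028 with library sizes alone and lost its call in 8 other alternatives. NEDD8 lost its call with limma (0.22 to 0.25). The cause was not tested.

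The number of members higher at a log2 fold change of at least 1.5 was 1 in each limma fit and 2 with library sizes alone and without a filter. For all genes that count was 6393 with DESeq2, 6996 without a filter and 1821 (1178 lower) with at least 10 counts in every library, where fewer genes were tested. Of the degradation genes 1 was higher with limma, and 2 target genes were lower with upper quartile factors and with at least 10 counts. With CPM per kilobase, 5 of the 10 members held the same rank under THZ1, and the IkB to subunit ratio there was 2.67. Without 1 library at a time, 6 to 7 members were higher and 2 lower.

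Same-numbered libraries did not deviate together (correlations −0.00400, 0.000969 and 0.0206), so the numbers do not pair them, and with the replicate block 7 members were higher and 2 lower, with NFKBIA at 1.05. REL and BCL3 had 20 to 42 reads under DMSO, which limits the precision of their folds. The at-least-10 filter shifted the median of all genes by 0.13 and limma by −0.34, on genes shared with the TMM fit.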
